A study of Mus musculus with 10 samples.

Results

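A sharp isolated window was a 5 kb window on chromosomes 1 to 19 in which the mean H3K4me3 of the 3 wild-type (WT) oocyte libraries was at least 6 normalized RPKM while both directly adjacent windows had a WT mean under 3 normalized RPKM. The rule was met by 911 of the 544879 windows measured. Among the 11509 autosomal windows with a WT mean of at least 6, another 3839 had 1 neighbour under 3, and 6742 had both neighbours at 3 or more, here called flanked windows. The flanked windows served as the comparison for position, sequence and level. The 911 windows were chosen on the WT values, so their WT level, their low neighbours and the cKO-minus-WT difference over them are descriptions, and no support is taken from a test of that difference.

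The libraries came from fully grown germinal vesicle (GV) oocytes of 21-day-old C57BL6 females (mouse lines kept on C57BL/6OlaHsd), in pools of about 200 oocytes per replicate. All animals carried floxed *Setd1b* alleles. The cKO oocytes (replicates 1, 3 and 4) were positive for Cre driven by the *Gdf9* promoter, which is active in growing oocytes, and the WT oocytes (replicates 1, 2 and 4) were labelled Cre negative. The study's methods also count as WT females that carried Cre and were heterozygous for the deleted allele, and the labels were followed here. The mark was profiled by an ultra-low-input native ChIP-seq (chromatin of few cells, cut with micrococcal nuclease and precipitated without crosslinking), and input libraries without precipitation were made for replicates 1 and 4 of each genotype. Replicates were separate pools, and the labels do not state whether pools shared animals.

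H3K4me3 is trimethylation of lysine 4 of histone H3. In most cells it forms narrow peaks at the start sites of active genes and at CpG islands, the stretches of DNA where the dinucleotide CpG has not been lost. Growing oocytes are unusual in that they also accumulate broad, low domains of H3K4me3 away from promoters, largely through the methyltransferase MLL2, which binds CpG-rich DNA that is free of DNA methylation. SETD1B is another H3K4 methyltransferase, one of the enzymes of the COMPASS family, and is brought to CpG-rich DNA through its partner CXXC1. A window that stands high between low neighbours is therefore the shape that resembles a conventional promoter peak within a genome of broad domains, although a width below 5 kb could not be resolved here.

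H3K4me3 libraries held 10856015 to 32775874 reads in windows. Enrichment differed between them: the 99th percentile window held 5.38 to 14.3 times the reads of the 40th percentile window in WT, and 13.5, 3.47 and 3.88 times in cKO replicates 1, 3 and 4. The normalization gave a window without reads 0.810 and 0.785 normalized RPKM in WT replicate 1 and cKO replicate 1, but −1.02 and −0.70 in cKO replicates 3 and 4. The window at the *Setd1b* promoter had 7.56, 7.65 and 6.11 normalized RPKM in WT and 4.50, 4.66 and 3.93 in cKO, and was not among the 911 because its neighbours stood at 9.10 and 8.47 in WT. Promoters of 12 oocyte markers had a median of 5.84 normalized RPKM in WT and 4.79 in cKO, with a higher cKO mean in 4 of 12. Their library sums were 66.2 to 75.6 in WT and 60.3 to 66.1 in cKO. These sums include *Gdf9*, whose promoter drives the Cre of the cKO, with 7.46 in WT and 10.7 in cKO. The blood markers *Ptprc* and *Cd68* lay between 1.29 and 1.37 in WT. Summed over 9 granulosa cell markers, H3K4me3 was 33.03 to 33.97 in the WT libraries and 41.56 to 43.95 in the cKO libraries, with a higher cKO mean in 9 of 9. Over 5 markers of stroma and endothelium the sums were 15.2 to 16.8 in WT and 17.1 to 18.6 in cKO, with a higher cKO mean in 3 of 5. No granulosa marker promoter was in a sharp isolated window, and the part of other cell types in the values below was not tested.

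The windows ranged from dense CpG islands to DNA with hardly any CpG. The 200 bases before the annotated TSS are printed for 9 promoters, followed by the 200 bases richest in CpG of 3 windows away from gene-level TSSs. These sequences were taken from the GRCm38 assembly, 5′ to 3′ on the strand of the gene (forward strand where there is none), and CpG dinucleotides are in capitals. *Rbm4* and *Rfpl4* stand for coding promoters with a large deficit in cKO and *Anp32a* and *Cux1* for those with an excess, in both cases without overlap of the groups. *Mos*, *Dnmt3l*, *Uhrf1*, *Kmt2c* and *Wdr5* are the members that were on the lists of oocyte, DNA methylation and H3K4 methylation genes.
Rbm4, chr19:4793902-4794101, reverse strand: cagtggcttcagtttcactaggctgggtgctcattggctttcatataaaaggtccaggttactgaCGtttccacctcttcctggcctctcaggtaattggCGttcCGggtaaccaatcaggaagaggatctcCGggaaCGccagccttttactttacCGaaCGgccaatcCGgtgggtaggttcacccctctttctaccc
Rfpl4, chr7:5116951-5117150, reverse strand: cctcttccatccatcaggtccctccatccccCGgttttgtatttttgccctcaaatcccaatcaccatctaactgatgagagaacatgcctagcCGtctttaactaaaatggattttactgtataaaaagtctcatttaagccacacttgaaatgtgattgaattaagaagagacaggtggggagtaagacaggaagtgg
Anp32a, chr9:62341093-62341292, forward strand: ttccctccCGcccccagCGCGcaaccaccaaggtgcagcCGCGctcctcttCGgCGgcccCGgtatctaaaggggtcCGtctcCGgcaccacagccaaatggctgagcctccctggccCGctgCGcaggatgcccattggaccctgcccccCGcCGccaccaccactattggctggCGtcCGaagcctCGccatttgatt
Cux1, chr5:136567491-136567690, reverse strand: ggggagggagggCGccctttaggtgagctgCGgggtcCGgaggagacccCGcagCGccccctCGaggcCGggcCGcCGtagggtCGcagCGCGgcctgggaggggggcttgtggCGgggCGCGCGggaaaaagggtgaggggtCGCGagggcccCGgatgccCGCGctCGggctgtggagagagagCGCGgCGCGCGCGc
Mos, chr4:3872106-3872305, reverse strand: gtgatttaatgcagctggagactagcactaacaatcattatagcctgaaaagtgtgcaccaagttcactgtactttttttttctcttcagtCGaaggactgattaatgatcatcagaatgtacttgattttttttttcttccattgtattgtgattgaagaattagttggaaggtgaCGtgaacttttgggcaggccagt
Dnmt3l, chr10:78041747-78041946, forward strand: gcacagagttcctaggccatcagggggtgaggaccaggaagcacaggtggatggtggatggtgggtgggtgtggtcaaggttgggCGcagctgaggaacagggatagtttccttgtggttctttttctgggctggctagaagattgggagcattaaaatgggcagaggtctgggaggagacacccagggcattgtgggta
Uhrf1, chr17:56303121-56303320, forward strand: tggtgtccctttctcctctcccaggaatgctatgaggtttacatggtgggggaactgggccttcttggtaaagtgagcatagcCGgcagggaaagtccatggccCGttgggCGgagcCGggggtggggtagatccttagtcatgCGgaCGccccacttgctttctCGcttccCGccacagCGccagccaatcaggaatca
Kmt2c, chr5:25498784-25498983, reverse strand: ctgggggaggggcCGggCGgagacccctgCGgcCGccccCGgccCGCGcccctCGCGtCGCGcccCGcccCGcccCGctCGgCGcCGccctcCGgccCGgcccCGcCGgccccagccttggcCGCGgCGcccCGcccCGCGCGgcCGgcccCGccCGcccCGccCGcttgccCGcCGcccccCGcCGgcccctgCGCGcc
Wdr5, chr2:27514957-27515156, forward strand: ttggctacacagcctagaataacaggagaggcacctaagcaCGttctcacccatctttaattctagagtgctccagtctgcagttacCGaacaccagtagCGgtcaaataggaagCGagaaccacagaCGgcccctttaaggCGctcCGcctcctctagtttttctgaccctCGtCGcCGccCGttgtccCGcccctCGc
Iffo2 gene body, chr4:139575208-139575407, forward strand: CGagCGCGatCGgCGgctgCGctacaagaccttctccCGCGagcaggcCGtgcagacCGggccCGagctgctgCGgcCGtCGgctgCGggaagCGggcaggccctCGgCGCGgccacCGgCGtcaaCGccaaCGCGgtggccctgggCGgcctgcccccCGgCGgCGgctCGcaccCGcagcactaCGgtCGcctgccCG
Intergenic, chr6:100391940-100392139, forward strand: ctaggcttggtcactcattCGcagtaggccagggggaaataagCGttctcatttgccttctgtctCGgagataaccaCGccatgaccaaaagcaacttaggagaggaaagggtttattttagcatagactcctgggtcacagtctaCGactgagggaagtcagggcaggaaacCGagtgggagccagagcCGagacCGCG
Intergenic, chr4:152993019-152993218, forward strand: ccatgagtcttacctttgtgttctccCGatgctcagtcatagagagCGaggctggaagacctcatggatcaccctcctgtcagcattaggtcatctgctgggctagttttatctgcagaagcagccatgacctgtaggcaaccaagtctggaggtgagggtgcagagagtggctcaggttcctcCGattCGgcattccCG
*Kmt2c* had 39 CpGs in its 200 bases and *Cux1* 28, whereas *Mos* and *Rfpl4* had 2 each and *Dnmt3l* had 1. *Anp32a* had 17, *Wdr5* 13, *Uhrf1* 9 and *Rbm4* 8. The *Iffo2* stretch, with 33 CpGs, lay inside the gene and near the start of a shorter annotated transcript. The intergenic stretches held 9 and 5 CpGs.

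The 911 windows stood above their surroundings in every library. The median H3K4me3 over the windows was 6.72, 6.77 and 6.38 normalized RPKM in WT replicates 1, 2 and 4, against 6.05, 5.19 and 5.76 in cKO replicates 1, 3 and 4. All 3 cKO medians were below all 3 WT medians. In the adjacent windows the medians were 1.91 to 2.07 in WT and 2.01 to 2.42 in cKO. At a distance of 10 kb they were 1.39 to 1.62 in WT and 1.51 to 2.15 in cKO. In cKO replicates 3 and 4 the centre was thus lower and the surrounding higher than in WT. The median of all autosomal windows was also higher in cKO replicates 3 and 4 (1.76 and 1.66) than in WT (1.49 to 1.59). The higher surrounding was therefore not particular to these windows. In whole reads, the median member held 113, 70 and 203 reads in WT and 95, 47 and 134 in cKO. The median ratio of a member to its neighbours was 5.29, 3.41 and 3.55 in WT and 3.84, 1.78 and 2.15 in cKO. Counting error alone gave a single window an SD of 0.427 to 0.905 normalized RPKM, depending on the library.

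**Figure D1:**
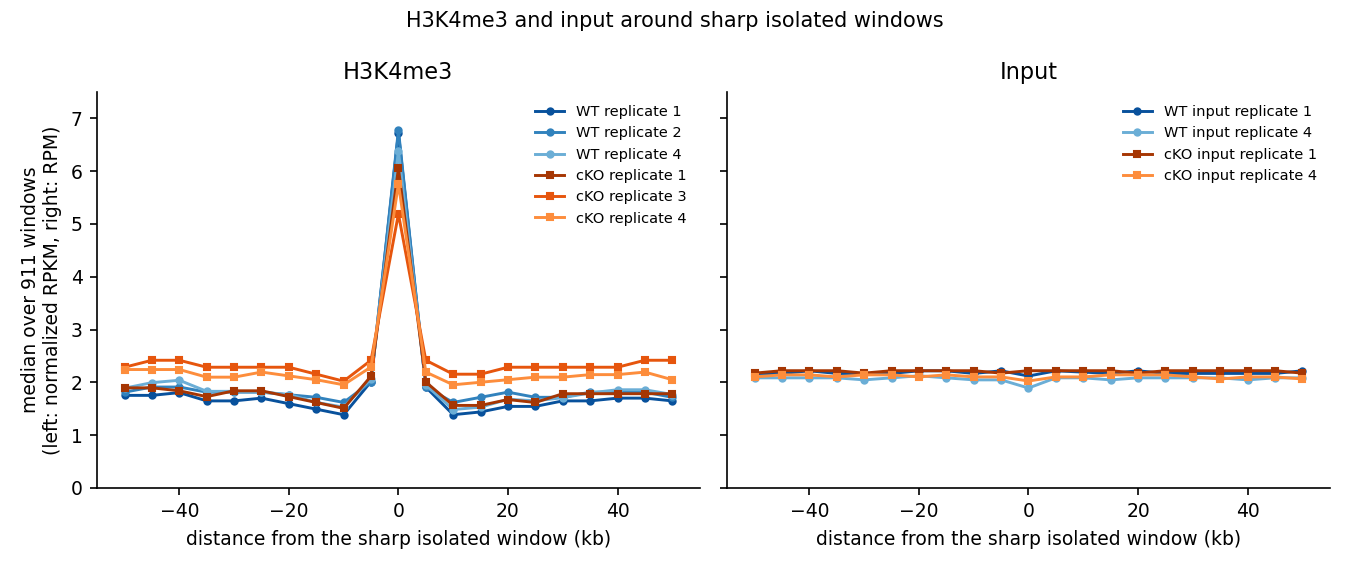
Median H3K4me3 (left, normalized RPKM) and input (right, RPM in the window) of the 911 sharp isolated windows and of the windows up to 50 kb to either side, 1 line per library, WT with circles and cKO with squares. The centre stood at 6.38 to 6.77 in WT and 5.19 to 6.05 in cKO, while input was close to 2 at every distance.

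The input gave no peak at these windows. Its median at the centre minus the mean of the neighbours was −0.07 and −0.15 RPM (reads in the window scaled to library size) in WT replicates 1 and 4 and 0 and −0.10 RPM in cKO replicates 1 and 4. In 3 of the 911 windows the mean input was above the 99th percentile of autosomal windows. The next autosomal window with a WT mean of at least 6 lay at a median distance of 65 kb (quartiles 30 and 150 kb), and in 530 windows (58.2%) it was more than 50 kb away. The windows differed little in WT level, with a lowest, median and highest WT mean of 6.0, 6.53 and 9.43, which follows from the threshold. The rule was met in each WT library taken alone by 259 of the 911 windows, so that most members met it in the mean and not in every library. A window can fail in a library by its centre or by a neighbour, and these were not counted apart.

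Position and sequence were not used by the rule, and both differed between the sharp isolated windows and flanked windows of the same WT level (medians of 6.53 and 6.54 normalized RPKM). A promoter (the gene-level TSS ± 500 bp in GENCODE M21) was present in 455 of the 911 windows (49.9%), against 23.9% of flanked windows and 10.7% of all autosomal windows. A further 250 members (27.4%) lay in gene bodies and 206 (22.6%) were intergenic, whereas 45% of flanked windows were intergenic. Promoters on both strands shared the window in 148 of the 455 (32.5%), compared with 13.7% of flanked promoter windows and 9.98% of all autosomal promoter windows. Examples were *Brat1* with *Iqce* and *Psmb1* with *Tbp*. Sharing a 5 kb window does not make such genes a bidirectional promoter pair, and the distance between their TSSs was not used. The TSSs of *Iqce* and *Brat1* were at chr5:140702378 and chr5:140705011. The 455 windows covered promoters of 635 gene symbols, 469 of them protein-coding. No member held a tRNA gene, compared with 76 flanked windows (1.13%) and 0.0526% of all autosomal windows. Windows are not independent samples, and these shares are given as descriptions.

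Where a protein-coding TSS fell inside a member window it tended to lie near the middle. Of 458 such TSSs, 341 (74.5%) were within the middle 3 kb of the window, against 61.5% of 909 TSSs in flanked windows, and 42 (9.17%) were within 500 bp of an edge, against 17.4%. The window grid is arbitrary with respect to genes, and a peak near a window edge spills into the neighbour and is then not counted as isolated. The rule therefore favours peaks that lie away from the window edges.

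**Figure D2:**
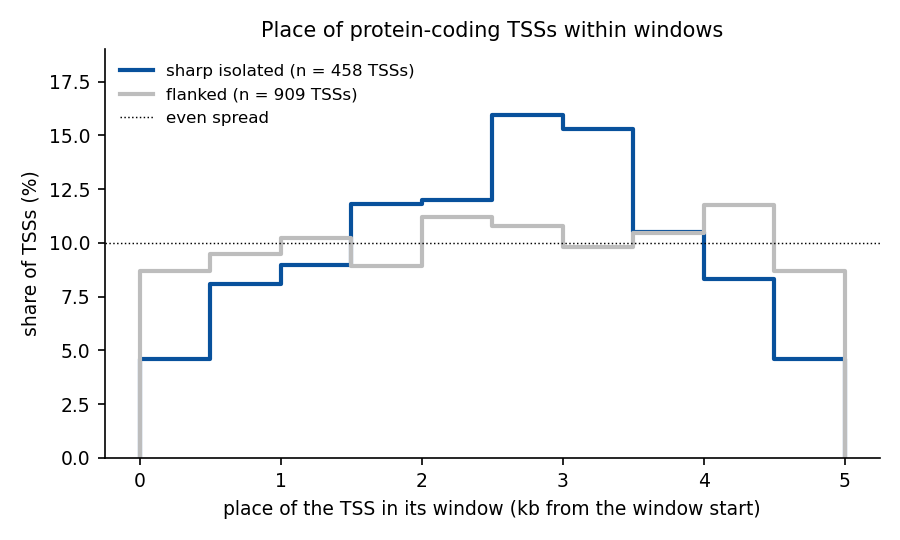
Share of protein-coding TSSs (percent, y axis) in bins of 500 bp along the window (kb from the window start, x axis) for 458 TSSs in sharp isolated windows and 909 in flanked windows, with an even spread as a dotted line. TSSs of sharp isolated windows were concentrated towards the middle, with 9.17% in the outer 500 bp of both sides together.

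CpG content was high. The median member held 76 CpGs in 5 kb (0.89 on a log2 scale relative to the genome), against 59 in flanked windows (0.53) and 35 in all autosomal windows (−0.18). Promoter members had a median of 120 CpGs (1.54), gene-body members 62.5 (0.61) and intergenic members 47 (0.20). Flanked promoter windows had 82 (1.0). Away from promoters the excess over flanked windows was therefore small for gene bodies, which had 58 CpGs in flanked windows, and absent for intergenic windows, which had 53. Repeats covered a median of 22.4% of a member, 24.1% of a flanked window and 27.4% of an autosomal window. The members were spread over all 19 autosomes, from 23 of 24978 windows on chromosome 14 to 72 of 25874 on chromosome 8.

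The promoter sequences of the members also differed in short motifs, searched on both strands from 250 bases before to 50 after the TSS in RefSeq sequences of 522 member promoters, 1168 flanked promoters and 31365 promoters in all. The GC box GGGCGG, the letters bound by SP1-type factors, was present in 58.6% of member promoters, 48.5% of flanked and 36% of all promoters. The ETS-type site CCGGAAG was present in 19.7%, 9.59% and 9%, and the NRF1-type site GCGCATGC in 7.09%, 4.02% and 2.69%. CCAAT was found in 42.7%, 37.6% and 37.3%, the E-box CACGTG in 9.20%, 9.16% and 7.14%, the CRE TGACGTCA in 3.45%, 2.23% and 1.83%, and the YY1-type site AAGATGGC in 3.83%, 3.17% and 2.74%. TATAAA was less frequent in member promoters (6.70%) than in flanked (10.1%) or all promoters (13.6%). The GC box, the ETS-type site, the NRF1-type site, the CRE and the E-box contain CpG, and the CpG content of the groups differed as described above.

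In the cKO libraries most of these windows were lower, and not all met the rule, which all of them met in WT by choice. The median cKO-minus-WT difference was −1.01 normalized RPKM (quartiles −1.69 and −0.32), and the cKO mean was lower in 768 windows (84.3%). The groups did not overlap, with all cKO values below all WT values, in 327 members (35.9%), against 9.95% of all windows, and with all cKO values above in 9 members (0.988%), against 9.88%. Flanked windows had a median difference of −0.59, a lower cKO mean in 75.1%, and all cKO values below in 20.9% and above in 2.21%. Windows with 1 low neighbour were close to the members, with −0.92, 84.2%, 31.3% and 1.48%. In limma (Benjamini-Hochberg adjustment over all windows, adjusted p under 0.05) 62 members (6.81%) were called lower, against 0.454% of all windows, 2.79% of flanked windows and 6.41% of windows with 1 low neighbour. None were called higher, against 0.563% of all windows (unadjusted p under 0.05 in 402 members lower and 13 higher). edgeR on the whole reads called 2 members lower, against 1.22% of the windows it tested, and 0 higher, against 1.07%. The 62 limma calls became 0 without WT replicate 1, 2 or 4 or cKO replicate 4, where at most 1 of all windows was called lower. They became 18 (1.98%) without cKO replicate 3, against 0.0892% of all windows, and 140 (15.4%) without cKO replicate 1, against 1.59%. With the replicate number as a block 230 members (25.2%) were called lower and 24 (2.63%) higher, against 3.63% and 2.51% of all windows, and 0 were called lower with quantile normalization or on a log scale. Because the WT libraries both chose the windows and enter this contrast, nothing is read from these counts. The cKO mean was still at least 6 in 349 members (38.3%) and under 3 in 4. Both neighbours stayed under 3 in 566 (62.1%). The complete rule was met by the cKO mean in 165 members (18.1%). Of the others, 401 fell short of 6 with low neighbours, 184 reached 6 with a raised neighbour and 161 failed in both respects.

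A choice on one group favours high values of that group, which was visible when the choice was turned around. The same rule on the cKO mean found 510 windows, of which 165 were shared (32.4% of the 510 and 18.1% of the 911). Over these 510 windows the median cKO-minus-WT difference was 0.57 normalized RPKM, and the cKO mean was lower in 31%. Their CpG content was higher (1.25), and 61.6% were at promoters.

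Windows chosen on a pair of WT libraries were therefore read in the WT library left out and in the cKO libraries, none of which took part in the choice. With WT replicate 1 held out, 897 windows had a median of 6.46 in WT replicate 1 and 5.89, 5.19 and 5.67 in cKO replicates 1, 3 and 4. With WT replicate 2 held out, 890 windows had 6.48 in WT replicate 2 and 6.0, 5.19 and 5.71 in cKO. With WT replicate 4 held out, 1058 windows had 6.17 in WT replicate 4 and 5.94, 5.19 and 5.67 in cKO. All 3 cKO medians were below the held-out WT median in each rotation. The median difference of the cKO mean from the held-out library was −0.99, −0.92 and −0.59 normalized RPKM, a mean of −0.83 ± 0.21 (SD over 3 rotations, which share libraries). Over flanked windows chosen in the same way it was −0.45, −0.13 and −0.51. The held-out WT library exceeded every cKO library in 55.6%, 52.9% and 43.6% of sharp isolated windows, in 37.1%, 30.3% and 39.2% of flanked windows, and in 33%, 20.7% and 26.2% of all windows. Without cKO replicate 3 the mean over the rotations was −0.62, and without cKO replicate 1 or 4 it was −1.0 and −0.85. With a single held-out library per rotation, the genotypes were not tested on these values.

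The size of this difference depended on the cKO library. Against the held-out WT replicates 1, 2 and 4, cKO replicate 1 differed by a median of −0.65, −0.50 and −0.27, cKO replicate 4 by −0.88, −0.78 and −0.51, and cKO replicate 3 by −1.53, −1.35 and −1.0. This order follows the order of the enrichment of the cKO libraries given above, and its part in the difference was not tested. WT replicate 1 and cKO replicate 1 had nearly equal enrichment (14.3 and 13.5 times) and similar depth (13085547 and 12765905 reads). The median difference between them was −0.65, the most negative of the values of cKO replicate 1. This is 1 library against 1, and the part of enrichment was not tested on it.

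**Figure D3:**
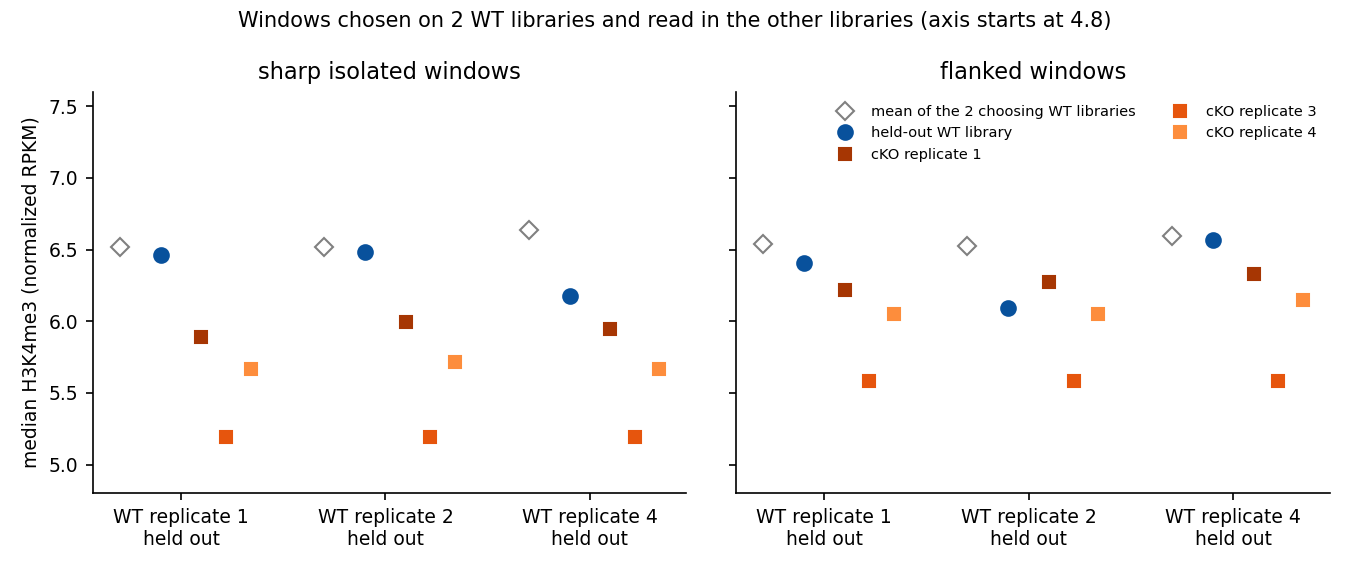
Median H3K4me3 (normalized RPKM, axis from 4.8) over windows chosen on 2 WT libraries, with the held-out WT library (circle), the mean of the choosing libraries (diamond) and the 3 cKO libraries (squares), for sharp isolated windows (left) and flanked windows (right). Held-out WT medians of 6.17 to 6.48 stood above cKO medians of 5.19 to 6.0 on the left, whereas on the right cKO replicate 1 was above the held-out WT replicate 2.

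Fewer windows met the rule in the cKO libraries than in the held-out WT libraries. With the held-out libraries read one at a time, the complete rule was met in 57.3%, 49.2% and 40.3% of the windows in WT replicates 1, 2 and 4. In the same rotations it was met in 28.2% to 28.5% in cKO replicate 1, 9.14% to 10.1% in cKO replicate 3 and 19% to 20.7% in cKO replicate 4. The neighbours had a median of 1.96, 2.01 and 2.07 in the held-out WT libraries, and of 2.12 to 2.14 in cKO replicate 1, 2.48 in cKO replicate 3 and 2.27 to 2.29 in cKO replicate 4. In cKO replicate 1 the neighbours were therefore close to WT and the centre was lower. cKO replicates 3 and 4 were also above WT in the median of all autosomal windows, as given above.

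The windows poorest in CpG had the most negative differences, whereas over all windows the relation with CpG content was weak in 2 of 3 rotations. Spearman's rho between CpG content and the difference of a cKO library from the held-out library was 0.027 to 0.096 against WT replicate 1 (897 windows), 0.011 to 0.078 against WT replicate 2 (890 windows) and 0.231 to 0.301 against WT replicate 4 (1058 windows). These values share libraries and are descriptions. When members were split into 5 groups of CpG content, the group with the least CpG (median 34 CpGs) had a median difference of −1.49, with 53.9% of its windows below all WT libraries and 12.9% at a cKO mean of 6 or more. The group with the most CpG (median 175) had −0.88, 27.7% and 50.5%. In the held-out rotations the lowest group had −1.18, −1.16 and −1.17 and the highest group −0.92, −0.85 and −0.12. The intermediate groups were not in steady order against WT replicates 1 and 2. In every rotation and for every cKO library the group with the least CpG had the most negative median, narrowly so against WT replicate 2 (−0.69 and −0.67 for the lowest and highest group in cKO replicate 1). Against WT replicate 4 the difference was closest to 0 or above it in the group richest in CpG, at 0.16 in cKO replicate 1 and −0.16 in cKO replicate 4 there, while cKO replicate 3 stayed at −0.54. Promoter and intergenic windows had held-out differences of −0.99 and −0.96 against WT replicate 1, −0.93 and −0.99 against WT replicate 2, and −0.44 and −0.81 against WT replicate 4. Promoter and intergenic windows were thus not in steady order.

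**Figure D4:**
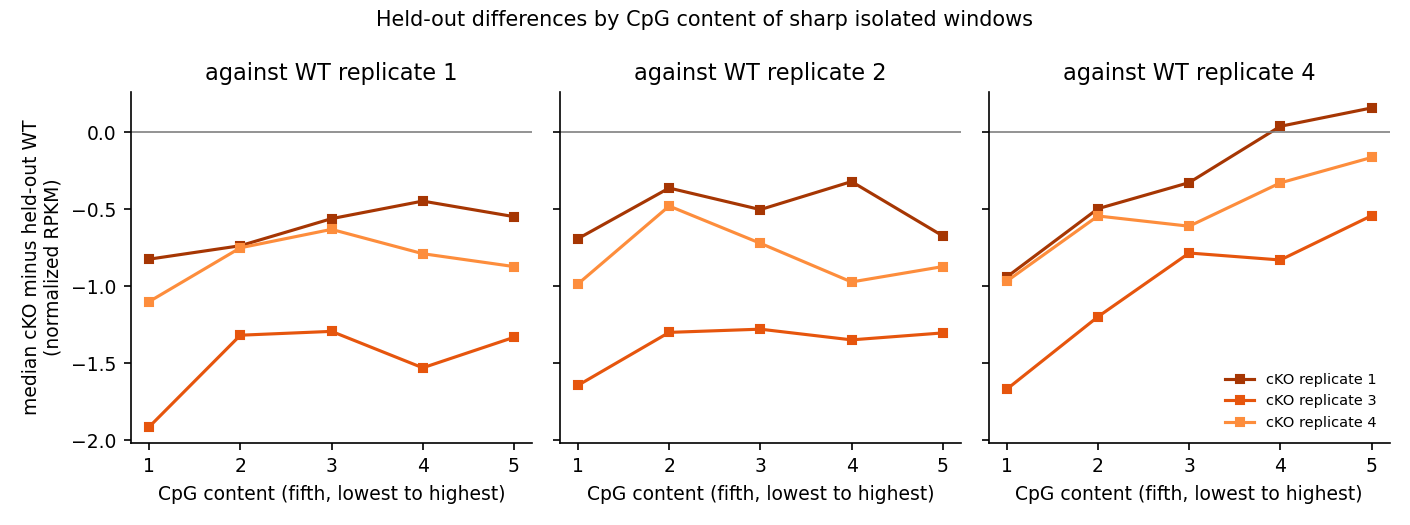
Median difference of each cKO library from the held-out WT library (normalized RPKM, y axis) over sharp isolated windows in 5 groups of CpG content (x axis, lowest to highest), 1 panel per held-out WT library and 1 line per cKO library. The group with the least CpG was lowest on every line, and against WT replicate 4 the values ended highest in the group with the most CpG.

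The highest WT mean belonged to the window in the body of *Iffo2*, an intermediate filament family gene (chr4:139575001-139580000), with 9.97, 9.11 and 9.20 normalized RPKM in WT and 6.50, 4.93 and 5.42 in cKO. All WT values exceeded all cKO values there. *Ccdc6*, which encodes a coiled-coil protein, had 9.08, 10.5 and 8.06 in WT and 8.83, 6.11 and 6.20 in cKO, and the groups overlapped. *Sall4*, a zinc finger transcription factor of germ cells and early embryos, had 8.03, 10.7 and 8.78 in WT and 7.05, 5.59 and 6.34 in cKO, without overlap. The window shared by *Anapc16*, a subunit of the anaphase-promoting complex, and *Ascc1* had 8.81, 8.82 and 8.48 in WT and 6.66, 6.38 and 8.17 in cKO. The pair *Elp2* and *Slc39a6*, the latter a zinc transporter, had 8.08, 10.7 and 7.88 in WT and 7.05, 4.66 and 5.23 in cKO. *Ccdc88c*, a regulator of Wnt signals, had 8.55, 10.2 and 7.55 in WT and 6.77, 5.45 and 5.23 in cKO, without overlap. WT replicate 2 gave the highest value at 8 of the 10 windows with the highest WT means.

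The largest deficits in cKO were found at a mixture of coding genes, noncoding genes and intergenic DNA. The lincRNA gene *Gm49224* had 8.03, 7.84 and 7.58 normalized RPKM in WT and 2.84, 2.55 and 3.83 in cKO, a mean difference of −4.75. *Rbm4*, an RNA-binding regulator of splicing, had 6.20, 6.77 and 6.47 in WT and 1.78, 2.95 and 1.90 in cKO. *Rfpl4*, a RING finger protein of oocytes, had 8.40, 9.30 and 7.52 in WT and 5.22, 3.47 and 4.31 in cKO. The pseudogene *Gm2077* had 6.67, 6.19 and 5.79 in WT and 2.56, 1.49 and 3.01 in cKO. The groups did not overlap in these windows. *Rbm4* and *Gm2077*, with 2 intergenic windows on chromosomes 7 and 15, were the 4 members whose cKO mean was under 3, a group named after its values were seen. At the intergenic windows chr6:100390001-100395000 and chr4:152990001-152995000 the mean differences were −4.20 and −4.12, but WT replicate 2 alone reached 11.2 and 10.3 there, with 7.82 and 7.25 and with 7.30 and 6.62 in WT replicates 1 and 4. The intergenic window chr1:51970001-51975000 had 6.56, 8.82 and 5.96 in WT and 3.72, 2.29 and 3.78 in cKO.

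In 9 members (0.988%, against 9.88% of all windows) every cKO library was above every WT library, a count that the choice on WT values lowers. Of these 9, 7 were at promoters of protein-coding genes, against 42% of all members. These 7 windows held 98 CpGs or more, and the median over all promoter members was 120. *Anp32a*, which encodes an acidic nuclear phosphoprotein, had 6.41, 6.29 and 5.81 normalized RPKM in WT and 9.27, 7.83 and 7.98 in cKO, the largest difference of this kind (2.19). Its window held 335 CpGs. *Cux1*, a homeobox transcription factor, had 6.77, 7.36 and 5.28 in WT and 8.05, 8.09 and 8.17 in cKO, with 357 CpGs. *Txn1*, the redox protein thioredoxin, had 7.09, 6.09 and 6.26 in WT and 8.83, 8.23 and 7.16 in cKO. *Fbp2*, a fructose bisphosphatase, had 6.93, 6.39 and 7.37 in WT and 9.21, 7.96 and 8.03 in cKO. *Mzt2*, *Abca2* and the pair *Brat1* and *Iqce* had differences of 1.02, 0.58 and 0.44, and that at *Mzt2* became 0.63 without cKO replicate 3. The other members of this group were a window in *Rasgef1c* and an intergenic window on chromosome 1, with 61 and 49 CpGs.

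The 10 highest cKO means were at windows with 61 to 358 CpGs, 9 of them promoters. *Mex3b*, an RNA-binding protein, had 7.87, 5.90 and 6.23 normalized RPKM in WT and 10.5, 7.30 and 9.96 in cKO, with 358 CpGs in the window. *Hes5*, a repressor that responds to Notch signals, had 8.03, 6.29 and 7.16 in WT and 8.49, 7.96 and 10.3 in cKO. *Fzd8*, a Wnt receptor, had 8.08, 10.5 and 6.41 in WT and 10.5, 7.83 and 8.22 in cKO. *Tnpo2*, a nuclear import receptor, with 180 CpGs, had 8.24, 8.91 and 6.65 in WT and 6.55, 10.6 and 7.98 in cKO. The window of *Zfp260* and *Zfp566*, both zinc finger genes, had 8.08, 6.58 and 7.70 in WT and 9.94, 7.30 and 8.03 in cKO, and that of *Rras* and *Scaf1* had 7.66, 6.48 and 7.73 in WT and 7.66, 8.23 and 8.65 in cKO. The groups overlapped at these 6 promoters, whereas *Fbp2*, *Anp32a* and *Cux1*, given above, were the other 3.

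**Figure D5:**
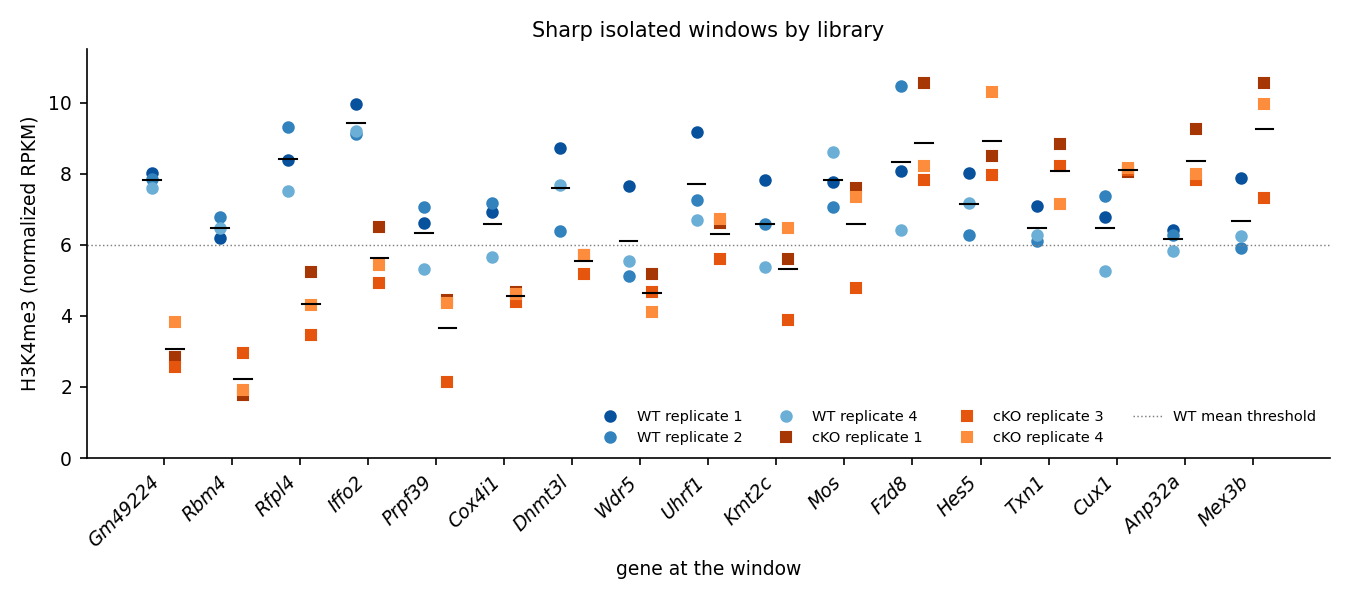
H3K4me3 (normalized RPKM, y axis) of 17 sharp isolated windows named by a gene there (x axis), with each WT library as a circle, each cKO library as a square and the group mean as a bar; the dotted line is the WT mean threshold of 6. From *Gm49224* to *Dnmt3l* no cKO value reached a WT value of the same window, whereas at *Txn1*, *Cux1* and *Anp32a* all cKO values were above all WT values.

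Of the 43 autosomal genes on the oocyte list, *Mos* was the only one in a sharp isolated window (2.33%, against 2.26% of all protein-coding genes). *Rfpl4*, given above, was not on this list. *Mos*, the kinase that holds the egg in the second meiotic arrest, had 7.77, 7.07 and 8.60 normalized RPKM in WT and 7.61, 4.79 and 7.35 in cKO, and the mean difference of −1.23 became −0.33 without cKO replicate 3. Among 11 DNA methylation genes, *Dnmt3l* and *Uhrf1* were members (18.2%). *Dnmt3l*, the cofactor of de novo methyltransferases needed for maternal imprints, had 8.71, 6.39 and 7.67 in WT and 5.72, 5.19 and 5.71 in cKO, without overlap (difference −2.05). Its window also held the promoter of *Aire*. *Uhrf1*, which brings the maintenance methyltransferase to replicated DNA, had 9.18, 7.26 and 6.68 in WT and 6.61, 5.59 and 6.73 in cKO, with an overlap of WT replicate 4 and cKO replicate 4.

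Among 21 genes of H3K4 methylation and demethylation, *Kmt2c* and *Wdr5* were members (9.52%). *Kmt2c*, an H3K4 methyltransferase that acts mainly at enhancers, had 7.82, 6.58 and 5.37 normalized RPKM in WT and 5.61, 3.87 and 6.48 in cKO. *Wdr5*, a subunit shared by the COMPASS complexes, had 7.66, 5.12 and 5.55 in WT and 5.17, 4.66 and 4.12 in cKO. The groups overlapped at both. Of the windows at promoters of these 21 genes, 7 of 25 had a WT mean of at least 6, so that the other high ones had a raised neighbour. No gene of the granulosa and somatic list (25 genes), of the replication-dependent histones (70) or of the ion channels and neurotransmitter receptors (197) was at a sharp isolated window. Olfactory and vomeronasal receptors had 1 of 1426 (*Olfr1419*), and developmental transcription factors and Wnt ligands 1 of 151 (*Foxq1*, 6.25, 6.29 and 5.67 in WT and 8.44, 5.32 and 7.64 in cKO).

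Over all autosomal genes, 635 of 51065 (1.24%) had a promoter in a sharp isolated window, and over protein-coding genes 469 of 20756 (2.26%). Of the ubiquitin system 9 of 190 genes (4.74%) were members. The cKO mean was lower at 8 of 9 of their windows and at 373 of all 455 promoter members, and since the WT values chose the windows nothing is read from this or the like counts of other lists. Among them were *Anapc7*, a subunit of the anaphase-promoting complex, with 6.62, 7.16 and 5.93 normalized RPKM in WT and 3.56, 4.40 and 4.27 in cKO, and *Fbxo33*, a substrate receptor of a ubiquitin ligase, with 7.77, 6.19 and 7.04 in WT and 4.56, 4.53 and 4.51 in cKO. *Fbxl22*, another F-box protein, had 7.40, 8.82 and 6.05 in WT and 7.05, 4.93 and 7.79 in cKO, and *Anapc5* had 6.83, 6.58 and 5.64 in WT and 6.55, 5.45 and 7.69 in cKO. The groups overlapped at both.

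Translation factors and tRNA synthetases had 6 of 109 genes among the members (5.50%). The cKO mean was lower at all 6, and the median difference was −1.39. *Eef1akmt4*, a methyltransferase of the elongation factor whose window also held the promoter of *Alg3*, had 8.66, 7.94 and 7.22 in WT and 7.38, 5.32 and 6.53 in cKO, and *Eif4e3*, a cap-binding protein, had 8.66, 8.04 and 6.59 in WT and 6.16, 5.45 and 7.16 in cKO, with overlap of the groups at both. *Qars*, the glutaminyl-tRNA synthetase, had 6.46, 7.65 and 6.17 in WT and 4.78, 5.06 and 4.46 in cKO, while *Eif5b*, which joins ribosomal subunits, had 6.30, 6.39 and 6.95 in WT and 6.72, 5.98 and 6.34 in cKO. The members among 81 cytosolic ribosomal proteins were *Rpl38*, with 7.25, 7.55 and 6.02 in WT and 6.0, 7.04 and 5.18 in cKO, and *Rpl8*, with 5.78, 6.19 and 6.29 in WT and 5.39, 5.85 and 5.71 in cKO. Of the mitochondrial ribosome, *Mrpl58* had 7.25, 8.04 and 6.92 in WT and 6.83, 7.70 and 6.58 in cKO, and *Mrps22* had 6.51, 7.75 and 6.53 in WT and 4.50, 7.17 and 5.62 in cKO. The groups overlapped at these 4 promoters. Without WT replicate 2 the mean difference at *Mrpl58* moved from −0.37 to −0.05, and without cKO replicate 1 that at *Mrps22* moved from −1.17 to −0.54.

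*Cox4i1* and *Ndufab1* were the members of the respiratory chain list. *Cox4i1*, a subunit of cytochrome oxidase, had 6.93, 7.16 and 5.67 normalized RPKM in WT and 4.67, 4.40 and 4.60 in cKO. *Ndufab1*, the mitochondrial acyl carrier protein, had 5.41, 7.84 and 7.01 in WT and 5.39, 2.42 and 5.38 in cKO. The lowest WT value there was 5.41, less than the worth of 1 read above the highest cKO value, and the mean difference of −2.36 became −1.38 without cKO replicate 3. The single splicing factor among the members, *Prpf39* of the U1 particle, had 6.62, 7.07 and 5.31 in WT and 4.45, 2.15 and 4.36 in cKO. The groups did not overlap at these 3 promoters. *Psme4*, a proteasome activator, had 7.40, 7.46 and 7.55 in WT and 6.50, 4.93 and 6.68 in cKO, without overlap. *Psmb1*, a proteasome subunit, had 6.56, 7.84 and 5.04 in WT and 7.27, 4.66 and 5.81 in cKO, with overlapping groups.

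Of the nuclear machinery, *Polr3k*, a subunit of RNA polymerase III, had 7.04, 6.0 and 5.37 normalized RPKM in WT and 3.95, 5.19 and 5.18 in cKO. *Gtf3c1*, a subunit of TFIIIC, had 6.98, 8.14 and 5.79 in WT and 6.50, 6.77 and 7.64 in cKO. *Xrcc5*, the Ku80 protein of double-strand break repair, had 6.46, 5.90 and 6.32 in WT and 5.28, 5.72 and 4.89 in cKO, without overlap. *Rfc4*, a clamp loader subunit, had 6.25, 8.04 and 5.40 in WT and 6.50, 5.32 and 5.09 in cKO, with overlapping groups. The zinc finger genes of the *Zfp* family had 13 of 394 genes (3.30%) in 12 windows, 9 of them with a lower cKO mean. *Zfp111* had 6.36, 6.29 and 5.46 in WT and 4.28, 2.29 and 3.11 in cKO, and *Zfp715* had 7.82, 9.21 and 7.07 in WT and 6.39, 4.13 and 5.67 in cKO. *Zfp709* had 7.77, 9.01 and 6.26 in WT and 7.83, 8.23 and 8.17 in cKO. The median difference was −0.96 over all 455 promoter members, −0.66 at the zinc finger windows and −1.31 at the ubiquitin windows. Over the lists it ran from −2.68 (splicing factors, 1 window) to 1.07 (developmental transcription factors and Wnt ligands, 1 window). The WT values chose the windows, so nothing is read from these medians.

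Away from gene-level promoters, the highest windows were mainly intergenic. The window chr4:150890001-150895000, with 114 CpGs, had 8.40, 10.3 and 8.72 normalized RPKM in WT and 5.11, 5.19 and 6.24 in cKO. The window chr9:111490001-111495000 had 7.51, 11.1 and 7.52 in WT and 4.89, 3.87 and 6.29 in cKO, and chr15:85710001-85715000 had 9.76, 9.11 and 7.04 in WT and 6.94, 6.91 and 5.62 in cKO. At chr4:142495001-142500000 the values were 8.55, 8.72 and 8.36 in WT and 7.0, 6.51 and 6.34 in cKO, and at chr11:20355001-20360000 they were 8.81, 8.14 and 8.03 in WT and 6.22, 7.17 and 5.71 in cKO. The window chr10:76200001-76205000 had 8.45, 9.50 and 7.43 in WT and 5.89, 4.53 and 4.56 in cKO. In the body of *Prdm16*, a transcriptional regulator with a SET-like domain, a window had 7.98, 9.01 and 8.0 in WT and 6.39, 5.72 and 6.34 in cKO. The groups did not overlap in these windows. At chr8:20995001-21000000, with 15 CpGs, the values were 8.87, 6.58 and 10.5 in WT and 5.72, 8.36 and 6.15 in cKO, and the input was also raised there, at 5.63 RPM in WT replicate 4 and 4.76 RPM in cKO replicate 1. When the TSS of every transcript was counted, 514 members (56.4%) were at promoters, the *Iffo2* window among them.

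Members did not rank alike in all libraries. Across the 911 windows Pearson's r was 0.136 to 0.320 between WT libraries, whose range the rule had narrowed, and 0.441 to 0.556 between cKO libraries. Between a WT and a cKO library it was 0.0428 to 0.248. These windows share libraries and normalization, and r is given as a description. The threshold itself was without a break. The 5 members just inside it had WT means of 6.0 to 6.01 and cKO means of 4.38 to 6.36, and the 5 windows just outside had WT means of 5.99 to 6.0 and cKO means of 4.31 to 7.18.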

How the data were processed

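H3K4me3 in d21 GV oocytes (3 WT and 3 *Setd1b* cKO libraries) and 4 input libraries were used. Per the submitters' notes and methods, the authors used Trim Galore 0.4.2 and Bowtie 2 2.2.9 with GRCm38, dropped poorly mapped reads and made 5 kb windows in SeqMonk, without windows of high input. The deposited H3K4me3 values are a score, enrichment-normalized RPKM on a linear scale with the 40th (1.23) and 99th (6.77) percentiles equal in all libraries. For the inputs the authors deposited a signal, the reads of a window scaled to library size. Input values were whole reads times a step and H3K4me3 values an offset plus whole reads times a step (tolerance 0.01 reads), which gave the counts of reads, and these include duplicates that cannot be told from independent fragments. Input libraries held 20756128 to 26566505 reads.

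Groups were taken from the labels. The test was limma 3.58.1 (R 4.3.3) on the values as deposited (no intensity trend, no replicate block, two-sided, Benjamini-Hochberg adjustment over all windows), and the scripts were tested on simulated data. Promoters were the TSS ± 500 bp of GENCODE M21 genes, and CpG content was the log2 ratio of CpG frequency (count plus 0.5) to the genome's, in windows with at least 2500 known bases. In the held-out reading, windows were chosen on each pair of WT libraries and read in the others. Alternatives included edgeR 4.0.16 on whole reads, log scales, quantile normalization and leaving out each library. Tests on 3 libraries against 3 cannot give an exact permutation p under 0.1. Other tools were pysam 0.24.0, pandas 2.3.3, scipy 1.17.1, numpy 2.4.6, matplotlib 3.10.9 and Python 3.11.15.

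The rule, gene lists and comparisons were chosen with earlier results of these data known. Windows named were the 10 highest in WT, in cKO and away from promoters, the 10 largest deficits and excesses without overlap of the groups, those at promoters of the oocyte, somatic, H3K4 and DNA methylation lists, the 2 highest of each other list and the 5 on either side of the threshold. The windows with a cKO mean under 3, and *Anapc5*, *Anapc7*, *Fbxo33*, *Qars*, *Eif5b* and *Zfp111*, were named after their values were seen.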

Additional observations from a re-analysis of the deposited data

How the results depend on the processing

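The number of windows followed the thresholds. It was 2696, 246 and 42 with a WT mean of at least 5, 7 and 8, 232 and 2206 with neighbours under 2 and under 4, 576 with 2 low neighbours on each side and 259 when each WT library had to meet the rule. It ranged from 890 to 1058 without single WT libraries. The median cKO-minus-WT difference was −0.59 when windows were chosen on WT replicates 1 and 2 and read against WT replicate 4, 0.57 with the choice on the cKO mean and −1.97 with a WT mean of at least 8. Leaving out single libraries gave −1.21 to −0.82, and log2(value + 1) and log2(RPM + 0.5) gave −0.22 and −0.44 on their own scales. Members called lower numbered 0 with log2(value + 1), log2(value + 0.1), quantile normalization and adjusted p under 0.01, where 0 of all windows were called lower too. They numbered 103 with an intensity trend (11.3%, against 2.01% of all windows) and 86 in windows with a mean of at least 1 (9.44%, against 0.851%). In edgeR they numbered 2, and without single libraries 0 to 140 (140, or 15.4%, without cKO replicate 1, against 1.59% of all windows). Members called higher numbered 2 (0.22%) with the trend, against 1.57% of all windows, 1 (0.11%) in windows with a mean of at least 1, against 0.979%, and 0 to 2 without single libraries, where 0 to 1.71% of all windows were.

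The cKO mean met looser thresholds (centre at least 5, neighbours under 4) in 66.7% of members and a centre of at least 2 times both neighbours in 53.8%, a ratio that depends on the zero set by the normalization of each library. Leaving out single libraries moved the share of 18.1% between 13.4% and 25.8%. The promoter share was 56.4% with every transcript, 42% with protein-coding genes and 57.1% with a WT mean of at least 8. The CpG content was 0.43 away from promoters, 1.15 with a WT mean of at least 8 and 0.99 with neighbours under 2, and 0.280 as observed over expected. The mean input difference was −0.08 RPM, or 0.0090 RPM away from promoters, and the ratio of centre to neighbours 0.960. The mean held-out difference, examined without single cKO libraries after the data were seen, was −1.0 to −0.62. Of 504 values of 63 named windows under quantile normalization, the replicate block and leaving out single libraries, 494 moved by less than the spread between replicates, and the sign turned at least once in 7 windows, none with a difference of 1 or more.

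Replicate numbers 1 and 4 were shared by the genotypes. Same-numbered libraries deviated together for number 1 (r = 0.319) and hardly for number 4 (r = 0.019). Libraries of unlike number had r of −0.036 (cKO 1 with WT 4) and −0.136 (cKO 4 with WT 1). The labels do not state what libraries of the same number shared, and the main fit used no block. With the replicate block 230 members (25.2%) were called lower, against 3.63% of all windows, and 24 (2.63%) higher, against 2.51%, and the difference within replicates 1 and 4 was −0.76. Depth limits single windows, where counting error gives 1 library an SD of 0.427 to 0.905 normalized RPKM.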
